A study of Mus musculus with 5 samples.

Results

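Interferon-stimulated genes are the genes that cells switch on when an interferon binds its receptor, and 36 of them were followed in mouse macrophages that had received interleukin 4 (IL-4). The members were listed by symbol from general knowledge of the interferon response, with no threshold on measured values. Earlier results of these data were known when the list was made. The members are 36 of the 49246 genes with a transcript in every library. The libraries came from bone marrow-derived macrophages of wild-type C57BL/6 mice, grown from marrow for 6 days. All cells received IL-4 at 10 ng/ml for 24 h. Before IL-4 they were given 30 µM CBR-5884, which inhibits PHGDH, the first enzyme of serine synthesis (3 libraries, replicates 3, 4 and 5), or its solvent (2 libraries, replicates 3 and 5). The treatment label alone separates the groups, and cells without IL-4 or treated with an interferon were not analysed here. Whether replicates are separate animals or cultures is not in the labels. The p-values therefore reflect only how far these libraries differ, which may be technical.

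Type I interferons bind the receptor IFNAR and act through the kinases JAK1 and TYK2. A complex that holds STAT2 and IRF9 then binds interferon-stimulated response elements in promoters. Interferon gamma acts through its own receptor and through GAS elements. Macrophages make and sense interferons and use the induced proteins against viruses and intracellular microbes.

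Promoters of members are shown because the response element is the site through which type I interferons act on many of these genes. RefSeq promoter windows (GRCm38.p6) of 250 bases before and 50 after the annotated start were available for 29 of the 36 members. The core of the response element, GAAA, any 2 bases and GAAA again, was searched on both strands. Some members had more than 1 window, and a gene was counted once. The core was found for 16 of these 29 members (55.2%), against 1079 of the 27025 genes with a window (3.99%). The GAS core, TTC, any 3 bases and GAA, was found for 7 of the 29 members (24.1%) and for 9.55% of all genes with a window. A match is a run of letters, not a site shown to be bound. The stretches below read 5′ to 3′ on the gene's own strand, with matches to the response element core in capitals (the core on the other strand reads TTTC, 2 bases, TTTC). They belong to members whose values carry the results that follow:
Gbp2 (chr3:142620589-142620628, plus strand): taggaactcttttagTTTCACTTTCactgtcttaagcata
Gbp3 (chr3:142559984-142560029, plus strand): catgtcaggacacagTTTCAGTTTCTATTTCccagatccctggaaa
Stat2 (chr10:128270261-128270300, plus strand): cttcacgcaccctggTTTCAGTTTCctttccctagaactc
Bst2 (chr8:71537572-71537617, minus strand): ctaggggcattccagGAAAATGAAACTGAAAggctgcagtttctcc
Isg15 (chr4:156200860-156200911, minus strand): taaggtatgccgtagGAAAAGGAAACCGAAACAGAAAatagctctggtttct
Ifit1 (chr19:34640770-34640828, plus strand): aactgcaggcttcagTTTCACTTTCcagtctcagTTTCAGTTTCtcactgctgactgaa
Oas1a (chr5:120907526-120907560, minus strand): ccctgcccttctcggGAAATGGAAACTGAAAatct
Oas3 (chr5:120777710-120777749, minus strand): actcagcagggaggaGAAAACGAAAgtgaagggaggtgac
In Isg15 the window held 3 overlapping cores, starting 78 bases before the annotated start. Bst2, Gbp3 and Oas1a held 2 overlapping cores each, and Ifit1 held 2 that were apart. Gbp2, Stat2 and Oas3 held 1 core each, which began 59, 222 and 75 bases before the start. The Stat2 window ended at base 128270547, before the gene start at 128270559 used for levels. The distance given for Stat2 is therefore uncertain.

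Levels are given in FPKM, which counts fragments relative to transcript length and library size, summed over the transcripts of a gene. Values per library are listed in the order replicate 3, 4 and 5 for CBR-5884 and replicate 3 and 5 for solvent. The deposited coverage implied 30230000 to 30700000 fragments per CBR-5884 library and 28310000 to 28850000 per solvent library. All 7 macrophage markers examined (Adgre1, Itgam, Csf1r, Cd68, Fcgr1, Mertk, Lyz2) averaged at least 1 FPKM. Of the 5 T and NK cell markers, Cd3e, Cd3g, Cd3d and Ncr1 were listed at 0 in every library, and Klrb1c reached at most 0.05 FPKM. Among the 10770 genes with a mean of at least 1 FPKM over the 5 libraries, 24 were called at an adjusted p below 0.05 by limma (0.223%), 5 higher (0.0464%) and 19 lower (0.176%) with CBR-5884. Of the 36 members, 26 reached that mean and were tested.

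Most interferon-stimulated genes had lower mean levels in CBR-5884-treated than in solvent-treated macrophages, but no member passed the test. Of the 26 tested members, 21 had a negative log2 fold change, on the log2(FPKM + 1) scale, against 55.7% of all genes tested. The median log2 fold change was -0.20 over the members and -0.031 over all genes. None was called at an adjusted p below 0.05 in limma, with 0.223% of all genes called. At an unadjusted p below 0.05, 3 members were lower (12.4% of all genes were) and 0 were higher (7.24%), against 19.6% of all genes in either direction. All 3 CBR-5884 libraries lay below both solvent libraries in 7 members, beside 24.9% of all genes, and above both in 0, beside 16.6%. The 7 of 26 is close to that background. In bulk RNA, fewer cells expressing a gene and less RNA per cell cannot be told apart.

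The spread inside the groups was as large as the shift. The range of the 3 CBR-5884 libraries exceeded the absolute log2 fold change in 22 of 26 members, against 63.1% of all genes. CBR-5884 replicate 4 was the lowest of the 5 libraries in 21 of 26 members, where 18.2% of all genes had it lowest. It was below both other CBR-5884 libraries in 23 of 26, against 29.5%. Solvent replicate 5 was the highest of the 5 libraries in 17 of 26 members, against 26.3% of all genes, and exceeded solvent replicate 3 in 22 of 26, against 54.6%. A low library in the treated group and a high one in the solvent group thus bounded most members.

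**Figure D1:**
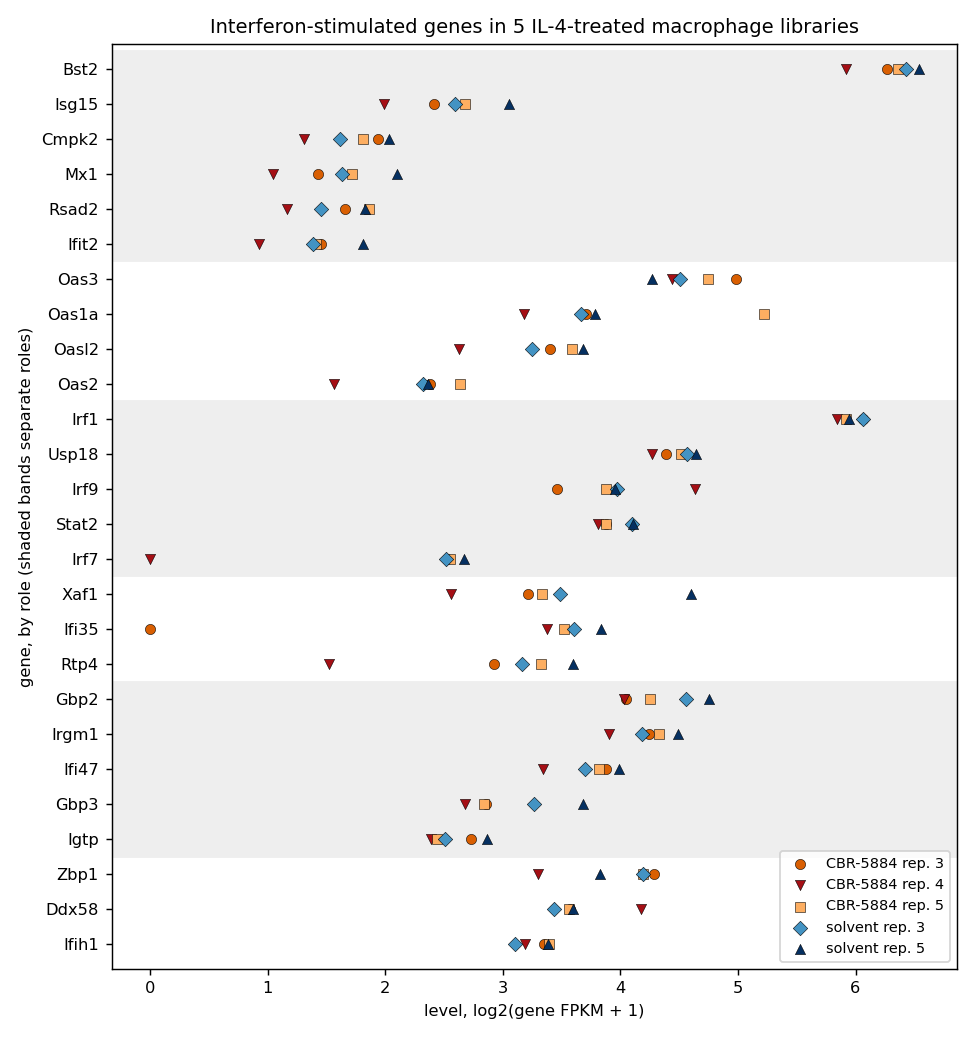
Level of the 26 tested members, as log2(FPKM + 1), in each of the 5 libraries, one row per gene grouped by role. The dark red triangles of CBR-5884 replicate 4 lie leftmost in 21 rows, and the dark blue triangles of solvent replicate 5 rightmost in 17.

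The antiviral effectors were 11 members, of which 6 were tested. All 6 had negative log2 fold changes (median -0.32, from -0.47 to -0.08), and CBR-5884 replicate 4 was the lowest CBR-5884 library in each. Bst2, tetherin, which holds budding virus at the cell surface, was the most abundant member. It had 75.8, 59.4 and 81.1 FPKM in CBR-5884 replicates 3, 4 and 5, against 85.3 and 92.0 FPKM in solvent replicates 3 and 5. The groups did not overlap, and the gap between CBR-5884 replicates 4 and 5 was wider than the gap between the groups. The log2 fold change of Bst2 was -0.31 (limma SE 0.15, adjusted p = 0.347).

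Isg15, a ubiquitin-like protein that is attached to other proteins after interferon, had 4.32, 2.97 and 5.40 FPKM in the CBR-5884 libraries and 5.04 and 7.31 FPKM in the solvent libraries. CBR-5884 replicate 5 exceeded solvent replicate 3, so the groups overlapped. Its log2 fold change was -0.47 (limma SE 0.26, adjusted p = 0.393). Mx1, a gene of the dynamin-like GTPase family, had 1.69, 1.07 and 2.28 FPKM with CBR-5884 and 2.11 and 3.29 FPKM with solvent, again with overlap. The log2 fold change of Mx1 was -0.47 (limma SE 0.26, adjusted p = 0.393). Assembled transcripts held 46.8% of the summed Mx1 FPKM over the libraries, and all of it in CBR-5884 replicate 3. Weighted by transcript length (FPKM times kilobases), the log2 fold change of Mx1 was -0.76. Ifit2, which binds foreign RNA, had 1.74, 0.90 and 1.66 FPKM with CBR-5884 and 1.62 and 2.501 FPKM with solvent. Only replicate 4 of the CBR-5884 libraries was below both solvent libraries for Ifit2, and the log2 fold change was -0.33 (limma SE 0.24, adjusted p = 0.488). Without CBR-5884 replicate 4 the log2 fold changes were -0.17 for Bst2, -0.28 for Isg15, -0.30 for Mx1 and -0.17 for Ifit2, and without solvent replicate 5 they were -0.25, -0.24, -0.24 and -0.12 in the same order.

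Rsad2 (viperin) and Cmpk2, neighbours on chromosome 12 that act on nucleotides, repeated that order. Rsad2 had 2.16, 1.25 and 2.64 FPKM with CBR-5884 and 1.74 and 2.56 FPKM with solvent. Cmpk2 had 2.83, 1.47 and 2.51 FPKM with CBR-5884 and 2.06 and 3.10 FPKM with solvent. In both genes CBR-5884 replicates 3 and 5 lay above solvent replicate 3, and their log2 fold changes were -0.08 for Rsad2 and -0.14 for Cmpk2. The other 5 effectors were under the mean of 1 FPKM and were not tested. Ifit1 had 1.03, 0.55 and 1.13 FPKM with CBR-5884 and 0.81 and 1.38 FPKM with solvent. Ifit3 ranged over 0.36 to 0.64 FPKM with CBR-5884 and 0.68 to 0.99 FPKM with solvent, and its close copy Ifit3b reached at most 0.07 FPKM in any library. Reads can be split between such copies, so both are uncertain. Mx2 ranged over 0.17 to 0.39 FPKM with CBR-5884 and 0.55 to 0.57 FPKM with solvent, and Isg20, an RNA exonuclease, over 0.69 to 1.19 FPKM with CBR-5884 and was at 0.90 FPKM in both solvent libraries.

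The oligoadenylate synthetases make the second messenger that activates RNase L, and 4 of 5 family members were tested. By summed FPKM their median log2 fold change was 0.08, with 2 negative and 2 positive. Weighted by transcript length, the median was -0.26, and only Oas3 was positive. Oas3, a long-RNA sensor of the family, had 30.7, 20.7 and 25.8 FPKM with CBR-5884 and 21.7 and 18.3 FPKM with solvent. Here solvent replicate 5 was the lowest library, and CBR-5884 replicate 4 again had the lowest value of its group. The log2 fold change of Oas3 was 0.34 (limma SE 0.19, adjusted p = 0.391). Oas1a had 12.1, 8.09 and 36.3 FPKM with CBR-5884 and 11.7 and 12.8 FPKM with solvent. CBR-5884 replicate 5 stood apart from the other 4 libraries, and 23.9 FPKM of its value came from an assembled transcript of 418 nt. That transcript reached from Oas1a into the neighbouring gene Oas1g. The whole value of CBR-5884 replicate 3 came from an assembled transcript that extended past Oas1g. The level of Oas1a in these libraries may therefore include Oas1g. The fold change of Oas1a, 0.32 (limma SE 0.65, adjusted p = 0.811), became -0.28 without CBR-5884 replicate 5.

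Oas2 had 4.20, 1.97 and 5.22 FPKM with CBR-5884 and 3.997 and 4.14 FPKM with solvent. Oasl2 had 9.54, 5.17 and 11.01 FPKM with CBR-5884 and 8.53 and 11.8 FPKM with solvent. By these sums, replicate 4 was in both the one CBR-5884 library below both solvent libraries. The log2 fold changes were -0.15 for Oas2 and -0.26 for Oasl2. Assembled transcripts held 67.0% of the summed Oas2 FPKM over the libraries. Weighted by transcript length, Oas2 had 12.2, 6.96 and 12.8 with CBR-5884 and 15.1 and 17.0 with solvent, without overlap. Oasl1, a regulator of Irf7 translation in mouse, was untested at 0.28 to 1.00 FPKM with CBR-5884 and 0.73 to 1.21 FPKM with solvent.

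The interferon-inducible GTPases attack the vacuoles of intracellular microbes. All 5 tested of the 6 had negative log2 fold changes, with a median of -0.18. Gbp2 (chromosome 3, 142620602 to 142638008, GRCm38, plus strand) had the smallest p of the tested members. It had 15.5, 15.3 and 18.0 FPKM with CBR-5884 and 22.6 and 26.0 FPKM with solvent, and no libraries overlapped. Its means were 16.3 ± 1.52 FPKM with CBR-5884 (SD, n = 3) and 24.3 ± 2.41 FPKM with solvent (SD, n = 2), a log2 fold change of -0.55 (limma SE 0.10, adjusted p = 0.132). Gbp2 had a single transcript above 0 in every library, and it was the one member of 11 with such a transcript in which all 3 deposited 95% intervals with CBR-5884 lay below both with solvent. These intervals cover the estimation within a library only.

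Gbp3, its neighbour (chromosome 3, 142560026 to 142573209, GRCm38, plus strand), had 6.25, 5.39 and 6.15 FPKM with CBR-5884 and 8.61 and 11.9 FPKM with solvent. The groups did not overlap, and the log2 fold change was -0.68 (limma SE 0.15, adjusted p = 0.143). That difference was not in the gene's main reference transcript, which had 4.15, 5.39 and 4.83 FPKM with CBR-5884 and 4.06 and 5.37 FPKM with solvent (log2 fold change 0.02). It lay in the remaining transcripts, among them an assembled one of 1076 nt with 4.63 FPKM in solvent replicate 5. Gbp2 and Gbp3 belong to a family of similar genes, so reads may be split between copies.

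Irgm1, a regulator of the immunity-related GTPases, had 17.9, 14.0 and 19.1 FPKM with CBR-5884 and 17.2 and 21.4 FPKM with solvent (log2 fold change -0.18, limma SE 0.17, adjusted p = 0.601). Igtp had 5.64, 4.25 and 4.43 FPKM with CBR-5884 and 4.69 and 6.31 FPKM with solvent. Ifi47 had 13.7, 9.16 and 13.1 FPKM with CBR-5884 and 12.0 and 14.8 FPKM with solvent. All 3 overlapped between groups, unlike Gbp2 and Gbp3, and Igtp and Ifi47 both had log2 fold changes of -0.17. Igtp and Ifi47 also share exonic bases with a neighbour, 162 nt with Irgm2 and 111 nt with Olfr56. Iigp1 was nearly silent, at 0.14 FPKM or less.

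Among the regulators, Stat2 had the narrowest spread by summed FPKM. Stat2 (chromosome 10, 128270559 to 128292849, GRCm38, plus strand), the transcription factor of the type I response, had 13.7, 13.0 and 13.7 FPKM with CBR-5884 and 16.1 and 16.3 FPKM with solvent. By these sums the groups did not overlap, and replicate 4 was the lowest library. The log2 fold change was -0.25 (limma SE 0.05, adjusted p = 0.133). Assembled transcripts held 2.90 FPKM of the sum in CBR-5884 replicate 4 and 2.97 FPKM in solvent replicate 3. The reference transcript alone had 13.7, 10.1 and 13.7 FPKM with CBR-5884 and 13.1 and 16.3 FPKM with solvent, and there the groups overlapped. Usp18, which switches off signalling at IFNAR, had 20.0, 18.3 and 21.8 FPKM with CBR-5884 and 22.8 and 24.0 FPKM with solvent. Its groups did not overlap, with a log2 fold change of -0.22 (limma SE 0.09, adjusted p = 0.282).

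Irf1, a transcription factor that interferon itself induces, was the most abundant member after Bst2, and its groups overlapped. It had 65.7, 56.4 and 59.6 FPKM with CBR-5884 and 66.0 and 60.7 FPKM with solvent (log2 fold change -0.07, limma SE 0.08, adjusted p = 0.694). Irf7, the factor that amplifies interferon production, was listed at 0 in CBR-5884 replicate 4, with 4.78 and 4.86 FPKM in replicates 3 and 5, and 4.72 and 5.37 FPKM in the solvent libraries. A value of exactly 0 can be a failed estimate, so Irf7 is described by its levels, and any fitted value that includes that library rests on the 0. Irf9, which binds DNA together with STAT2, had 10.0, 23.8 and 13.7 FPKM with CBR-5884 and 14.7 and 14.5 FPKM with solvent. The high value in replicate 4 held 13.6 FPKM from an assembled transcript of 224 nt, and without that library the fold change of 0.03 (limma SE 0.36, adjusted p = 0.971) was -0.29.

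Of the 3 sensors of foreign nucleic acid, 2 had positive log2 fold changes by summed FPKM, and the median was 0.06. Weighted by transcript length, the median was -0.06. Ifih1 (MDA5), a sensor of long double-stranded RNA, had 9.18, 8.12 and 9.50 FPKM with CBR-5884 and 7.62 and 9.42 FPKM with solvent. Ddx58 (RIG-I) had 10.9, 17.1 and 10.9 FPKM with CBR-5884 and 9.84 and 11.1 FPKM with solvent. The high replicate 4 of Ddx58 held 8.98 FPKM from an assembled transcript of 278 nt, and the log2 fold changes were 0.26 for Ddx58 and 0.06 for Ifih1. Zbp1, which senses Z-form nucleic acid, had 18.5, 8.86 and 17.3 FPKM with CBR-5884 and 17.3 and 13.2 FPKM with solvent. In solvent replicate 3, 7.77 FPKM of Zbp1 came from an assembled transcript of 410 nt. Its log2 fold change, -0.08 (limma SE 0.35, adjusted p = 0.908), was 0.23 without CBR-5884 replicate 4 and 0.10 without solvent replicate 3.

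Xaf1, a pro-apoptotic protein, had 8.30, 4.90 and 9.09 FPKM with CBR-5884 and 10.2 and 23.2 FPKM with solvent. Its groups did not overlap, but 15.5 FPKM of solvent replicate 5 came from an assembled transcript of 241 nt. The log2 fold change of Xaf1 was -1.003 (limma SE 0.43, adjusted p = 0.295), but -0.45 without that library and -0.21 without it and CBR-5884 replicate 4. Rtp4 had 6.58, 1.88 and 9.02 FPKM with CBR-5884 and 7.97 and 11.1 FPKM with solvent. Replicate 4 was the low library again, and the log2 fold change of Rtp4 was -0.79 (limma SE 0.59, adjusted p = 0.504), but -0.26 without that library and -0.042 without it and solvent replicate 5. Ifi35 was listed at 0 in CBR-5884 replicate 3, with 9.36 and 10.5 FPKM in replicates 4 and 5, against 11.2 and 13.3 FPKM with solvent. Ifi35 is likewise described by its levels. Ifi44 was untested, at 0.49, 0.06 and 0.34 FPKM with CBR-5884 and 0.30 and 0.44 FPKM with solvent.

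The chemokines Cxcl9 and Cxcl10, which draw T cells, were almost absent. Cxcl10 was listed at 0 in CBR-5884 replicate 3, had 0.08 FPKM in replicates 4 and 5, and had 0.13 and 0.36 FPKM in solvent replicates 3 and 5. Cxcl9 was listed at 0 in every library except solvent replicate 5, which had 0.04 FPKM.

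Several members share exonic bases with another gene, and their levels are uncertain to that extent. The neighbour was on the same strand for Rtp4 (296 nt with Gm45338) and Irf9 (123 nt with Rnf31), as for Igtp and Ifi47. On the opposite strand, where the unknown strand setting matters, the overlap was 290 nt for Ifi35 (Gm11626), 135 nt for Irf1 (Gm17334), 133 nt for Cxcl10 (Art3) and 124 nt for Usp18 (Gm44148). It was 45 nt for Irf7 (Phrf1), 38 nt for Oasl1 (Gm13822) and 24 nt for Gbp2 (Mir6381).

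**Figure D2:**
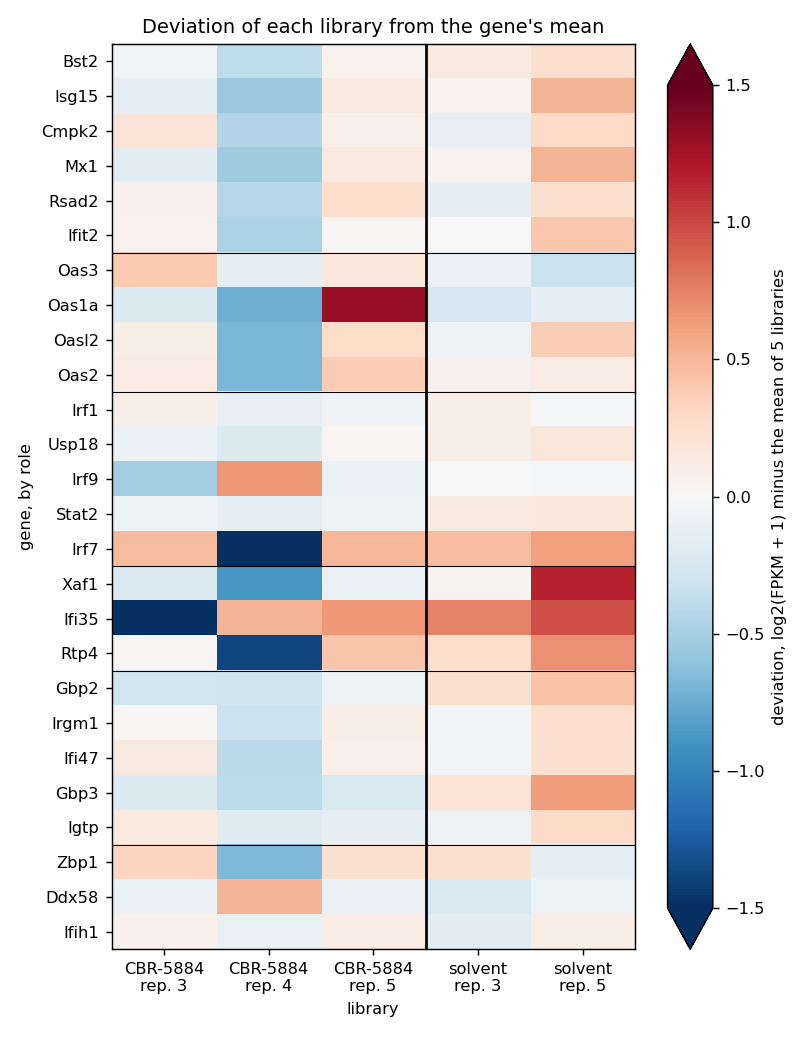
Deviation of each library from the gene's mean over the 5 libraries, in log2(FPKM + 1), for the 26 tested members grouped by role; blue is below and red above the mean, and colours saturate at 1.5. The column of CBR-5884 replicate 4 is blue in 23 of 26 rows and that of solvent replicate 5 red in 20; the darkest cells of Irf7 and Ifi35 are values listed at 0.

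The median deviation of the members from their own mean over the 5 libraries was 0.01 in CBR-5884 replicate 3, -0.40 in replicate 4 and 0.09 in replicate 5, on the log2 scale. In solvent replicates 3 and 5 it was 0.05 and 0.25. Over all genes the same medians lay between -0.03 and 0.02. Only CBR-5884 replicate 4 and solvent replicate 5 were therefore displaced by more than 0.1 in the members.

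The 6 pairs of a CBR-5884 and a solvent library gave different pictures. The median difference was -0.41 for CBR-5884 replicate 4 minus solvent replicate 3 and -0.63 for replicate 4 minus solvent replicate 5, with 23 of 26 members lower in each. Against solvent replicate 3, the median was 0.03 for CBR-5884 replicate 3 and 0.06 for replicate 5. Against solvent replicate 5, it was -0.24 for CBR-5884 replicate 3 and -0.16 for replicate 5. In absolute size, all 4 differences inside the groups fell within the range of those between groups. Replicate 4 minus replicate 3 of CBR-5884 was -0.40, replicate 4 minus replicate 5 was -0.46, and solvent replicate 5 minus replicate 3 was 0.25. Replicate 5 minus replicate 3 of CBR-5884, at 0.09, was the smallest of the 4. Over all genes every one of these 10 medians lay between -0.05 and 0.02.

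**Figure D3:**
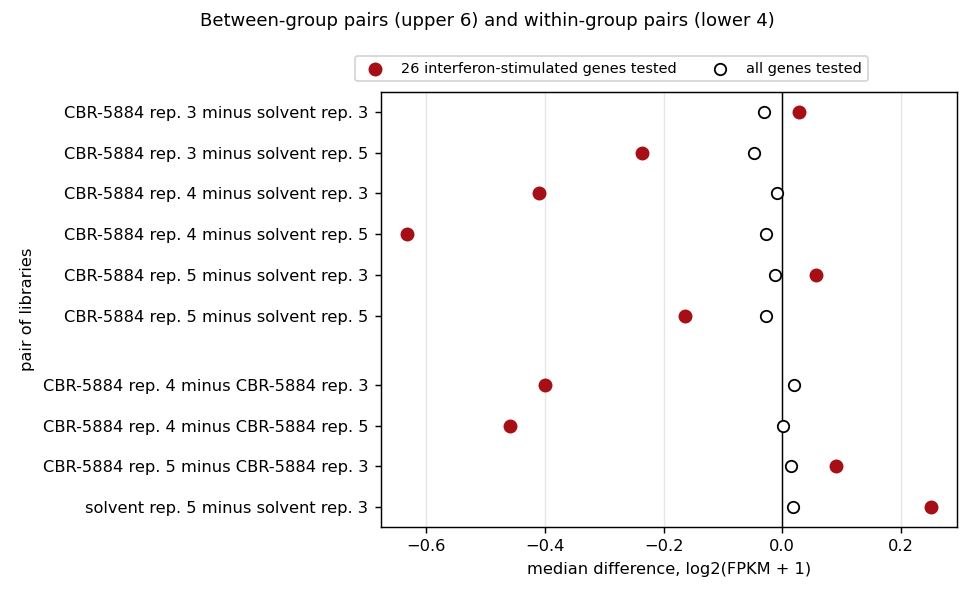
Median difference in log2(FPKM + 1) between 2 libraries, over the 26 tested members (filled) and over all genes tested (open), for the 6 between-group pairs and the 4 within-group pairs. The members lie near 0 where neither CBR-5884 replicate 4 nor solvent replicate 5 enters the pair, and between -0.63 and 0.25 otherwise.

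Over the tested members the median log2 fold change was -0.053 without CBR-5884 replicate 4 (16 of 27 negative) and -0.13 without solvent replicate 5 (18 of 26). It was -0.26 without CBR-5884 replicate 3, -0.28 without replicate 5 and -0.33 without solvent replicate 3. Without both CBR-5884 replicate 4 and solvent replicate 5, it was 0.034 with 12 of 26 negative. The choice to leave out these libraries together was made after their values were seen. Of the 26 members, 10 changed sign in at least 1 of the 5 fits without a library, 7 of them without CBR-5884 replicate 4, and 14 stayed below 0 in all 5. Gbp2 ranged over -0.65 to -0.45 in these fits, and was -0.41 without both libraries. Stat2 was -0.22 without both, and Isg15 and Mx1 were -0.05 and -0.07.

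**Figure D4:**
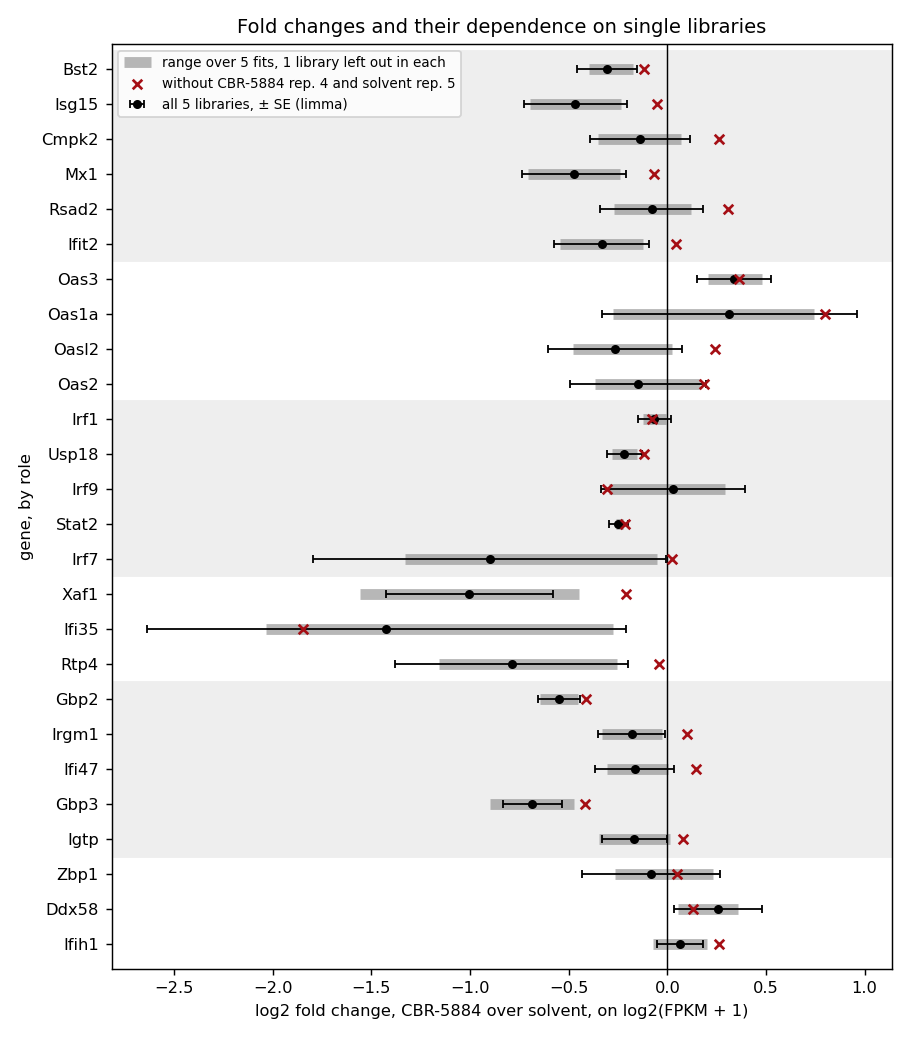
Log2 fold change of CBR-5884 over solvent for each tested member (points, with limma's SE as bars), its range when 1 library at a time is left out (grey bands) and its value without CBR-5884 replicate 4 and solvent replicate 5 (crosses). Gbp2, Gbp3, Stat2 and Usp18 keep negative values throughout, while the crosses of Isg15 and Mx1 lie near 0; the values of Irf7 and Ifi35 rest on a library listed at 0.

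The estimation error inside CBR-5884 replicate 4 was smaller than its distance from its group in some members. Among the 11 members quantified by one and the same transcript in every library, its deposited 95% interval lay below those of both other CBR-5884 libraries in 6 (Ifit1, Ifit2, Oas3, Oasl2, Ifi44 and Bst2). For Oasl2 the interval was 4.70 to 5.64 FPKM in replicate 4, 8.91 to 10.2 in replicate 3 and 10.3 to 11.7 in replicate 5. Solvent replicate 5 lay above solvent replicate 3 by the same criterion in 5 (Ifit1, Ifit2, Oasl2, Gbp2 and Igtp).

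Short assembled transcripts receive high FPKM, so the sum was also weighted by transcript length (FPKM times kilobases), an alternative added once the data had been seen. On that scale 24 of 26 members had negative log2 fold changes, against 56% of all genes, with a median of -0.27. Oas1a, Irf9 and Ddx58 had -0.23, -0.30 and -0.06 on this scale, and Oas2 had -0.59. In 24 of 26 members CBR-5884 replicate 4 was below both other CBR-5884 libraries, against 29.6% of all genes. All 3 CBR-5884 libraries were below both solvent libraries in 9 of 26, beside 27.6% of all genes.

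Gbp2 and Gbp3 were called lower with CBR-5884 on the length-weighted scale, 2 of 26 members where 1.68% of all genes were called lower, 1.02% higher and 2.7% in either direction. The length-weighted log2 fold change was -0.57 for Gbp2 (limma SE 0.10, adjusted p = 0.0464) and -0.56 for Gbp3 (limma SE 0.09, adjusted p = 0.0385). Both calls were lost whichever library was left out, with limma adjusted p of 0.109 to 0.223 for Gbp2 and 0.113 to 0.240 for Gbp3, while both fold changes stayed between -0.67 and -0.47. Over the other settings of either scale the adjusted p was 0.0938 to 0.438 for Gbp2 and 0.112 to 0.957 for Gbp3.

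**Figure D5:**
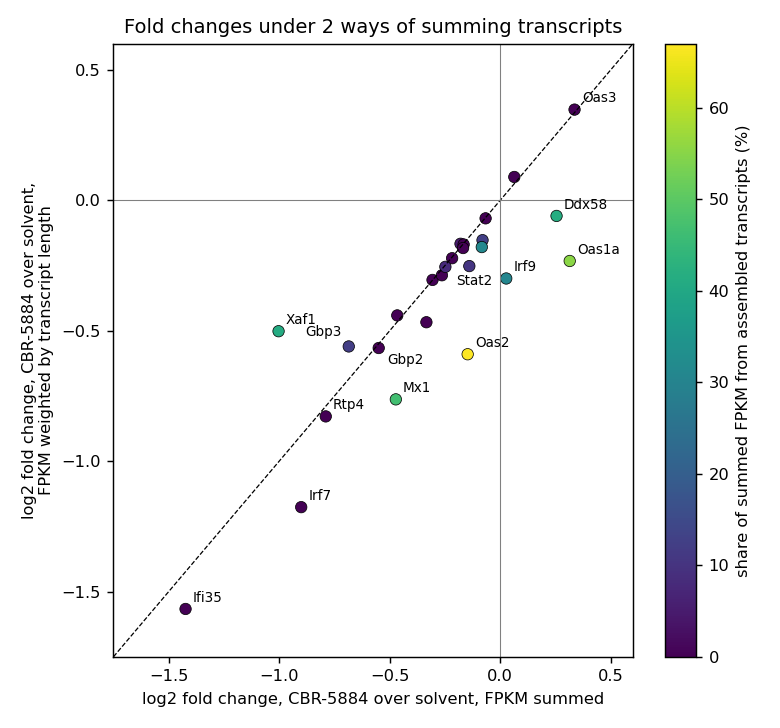
Log2 fold change of CBR-5884 over solvent for the 26 tested members with FPKM summed (x axis) and with FPKM weighted by transcript length (y axis), coloured by the share of the summed FPKM that came from assembled transcripts; the dashed line marks equal values. Oas1a, Irf9 and Ddx58 pass from positive to negative, and Oas2, with the largest assembled share, has -0.15 and -0.59.

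Members with and without the response element core were set side by side. The 12 tested members with the core had -0.17 as their median log2 fold change, and 11 had CBR-5884 replicate 4 below both other CBR-5884 libraries. The 9 tested members with a window and no core had a median of -0.26, and 7 had replicate 4 below the others. No test was made of this split.

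Other genes of the interferon pathway, from a list of 79 set by role, were compared in the same fit. Of these, 63 were tested and 0 were called in either direction by summed FPKM, with a median log2 fold change of -0.11 and 45 negative. The 7 ligands were not tested: Ifnb1 and Ifng were listed at 0 except in solvent replicate 5, with 0.13 and 0.04 FPKM. The 7 receptors and kinases had a median log2 fold change of 0.01. Ifngr1, the ligand-binding chain of the interferon gamma receptor, had 104, 107 and 106 FPKM with CBR-5884 and 129 and 130 FPKM with solvent (log2 fold change -0.29, limma SE 0.04, adjusted p = 0.101). Ifngr2, its signalling chain, had 60.8, 58.6 and 62.0 FPKM with CBR-5884 and 53.6 and 103 FPKM with solvent. Weighted by transcript length, Ifngr2 had 198, 191 and 202 with CBR-5884 and 174 and 195 with solvent (log2 fold change 0.09). The Ifngr1 groups were tight and apart, and those of Ifngr2 overlapped.

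Among the transcription factors, Irf5, an activator of inflammatory cytokine genes, had 133, 152 and 137 FPKM with CBR-5884 and 180 and 170 FPKM with solvent (log2 fold change -0.31, limma SE 0.07, adjusted p = 0.156). Irf3, which drives early interferon transcription, had 20.1, 27.3 and 20.0 FPKM with CBR-5884 and 32.3 and 25.0 FPKM with solvent (log2 fold change -0.34, limma SE 0.19, adjusted p = 0.395). In neither factor was CBR-5884 replicate 4 the low library.

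The 12 sensors and adaptors had a median log2 fold change of -0.13. Ikbke, a kinase that activates IRF3 and IRF7, had 16.2, 14.9 and 14.2 FPKM with CBR-5884 and 26.6 and 25.8 FPKM with solvent. The gap between the groups was wider than the spread within either, with a log2 fold change of -0.76 (limma SE 0.07, adjusted p = 0.0645). On the length-weighted scale Ikbke was called lower, at -0.92 (limma adjusted p = 0.0182), together with Tlr9, the receptor for unmethylated CpG DNA. That made 2 of 63 pathway genes called lower on this scale, beside 1.68% of all genes. Dhx58 (LGP2) had 5.45, 4.35 and 6.34 FPKM with CBR-5884 and 6.69 and 13.6 FPKM with solvent, a log2 fold change of -0.74 (limma SE 0.32, adjusted p = 0.297). Assembled transcripts held 23.9% of the summed Dhx58 FPKM over the libraries. Weighted by transcript length, Dhx58 had 13.2, 10.5 and 15.3 with CBR-5884 and 16.1 and 21.1 with solvent (log2 fold change -0.49).

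The 5 tested brakes on signalling had a median of -0.03. The phosphatase gene Ptpn6 (SHP-1) had 80.7, 77.0 and 85.4 FPKM with CBR-5884 and 89.8 and 90.1 FPKM with solvent, a log2 fold change of -0.15 (limma SE 0.06, adjusted p = 0.268). Pias1, a SUMO ligase, had 14.8, 15.7 and 15.0 FPKM with CBR-5884 and 13.4 and 13.8 FPKM with solvent, a log2 fold change of 0.15 (limma SE 0.05, adjusted p = 0.239).

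Further interferon-induced genes outside the 36 repeated the library pattern. CBR-5884 replicate 4 was below both other CBR-5884 libraries in 30 of the 34 tested, and 24 of 34 had a negative log2 fold change (median -0.14). Ifitm3, which blocks virus entry from endosomes, had 44.8, 22.0 and 44.7 FPKM with CBR-5884 and 68.4 and 73.2 FPKM with solvent. Ifi27l2a had 48.0, 24.3 and 54.9 FPKM with CBR-5884 and 63.5 and 79.9 FPKM with solvent. In both, all CBR-5884 libraries were below both solvent libraries and replicate 4 was the lowest by far. Their log2 fold changes were -0.98 for Ifitm3 (limma SE 0.35, adjusted p = 0.245) and -0.81 for Ifi27l2a (limma SE 0.39, adjusted p = 0.333).

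Marker genes of other cells moved with some of these groups. Summed FPKM of the 3 monocyte markers was 3.56 to 4.29 in the CBR-5884 libraries and 7.94 to 8.81 in the solvent libraries, mostly Ccr2. The 5 conventional dendritic cell markers summed to 0.811 to 1.18 FPKM with CBR-5884 and 1.30 to 1.94 FPKM with solvent. The 4 fibroblast markers summed to 10.7 to 17.0 FPKM with CBR-5884, highest in replicate 4, and 17.8 to 18.8 FPKM with solvent. The 5 plasmacytoid dendritic cell markers, with Ccr9 at 0 throughout, summed to 0.766 to 1.04 FPKM with CBR-5884 and 0.842 to 1.28 FPKM with solvent. Neutrophil markers, 6 with Ly6g at 0, summed to 10.5 to 13.5 FPKM with CBR-5884 and 10.9 to 22.2 FPKM with solvent, and the 4 B cell markers to at most 0.277 FPKM in any library. The 7 macrophage markers summed to 9728 to 13062 FPKM with CBR-5884 and 10992 to 13073 FPKM with solvent, with CBR-5884 replicate 4 the lowest library. Most of that sum was Lyz2, at 10241, 6964 and 8099 FPKM with CBR-5884 and 10378 and 8456 FPKM with solvent, whereas Itgam was highest in CBR-5884 replicate 4 (221 FPKM). The part of these markers in the levels of the interferon-stimulated genes was not tested.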

How the data were processed

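The 5 deposited files list transcripts with their exons. Per the file headers, Cufflinks estimated an FPKM value, a 95% interval and a coverage for each transcript, separately for every library. The submitters' processing notes name Bowtie2, TopHat2, Cufflinks and build mm10 (GRCm38). Versions, annotation release and strand setting: not given in the sources used here. The kit was directional, per the labels' protocols. Overlapping genes are therefore uncertain.

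GENCODE M21 gave the gene of each reference transcript, and assembled ones of at least 200 nt went to the gene covering at least 50% of their exonic bases on the same strand. Those left out held 64.0% to 70.3% of the summed FPKM but 8.55% to 10.2% of covered bases. Gene FPKM was the sum over transcripts. Genes with a mean of at least 1 FPKM were tested in limma 3.58.1 (R 4.3.3), two-sided and with a variance trend, on log2(FPKM + 1). The fit had 3 residual degrees of freedom and Benjamini-Hochberg adjustment over all genes tested. A fold change on this scale understates the change of low genes. FPKM are not counts, so no count model was used. The script was tested on simulated data.

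Named genes were those called, otherwise the members with the 10 largest absolute fold changes or the 10 highest means, and the 2 largest changes per role of the wider pathway; the remaining members were described to account for all 36. Members, pathway list and markers were chosen with earlier results of these data known. In 25 settings, 16 of them planned, scaling, filter, pseudocount, transcript sum or libraries were changed.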

Additional observations from a re-analysis of the deposited data

How the results depend on the processing

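No member was called in any setting except the length-weighted sum, which called 2 (Gbp2 and Gbp3). Over all genes, 24 were called. The count was 38 with no filter, 9 at a mean of at least 5 FPKM, 39 with reference transcripts only, 1 without genes at 0 in a library and 19 to 89 with 1 library left out (66 without solvent replicate 5 and 89 without solvent replicate 3). It was 291 with the length-weighted sum, and 16 to 50 on that scale with 1 library left out. Without CBR-5884 replicate 4 and solvent replicate 5 it was 0 in limma, with 1240 genes at an unadjusted p below 0.05. Genes higher and lower at an unadjusted p below 0.05 were 780 and 1334, against 1170 and 1017 on the TPM scale, 1034 and 1060 with median ratio scaling and 1163 and 945 with quantile normalization. The members' median log2 fold change kept its sign under these scalings (-0.17, -0.17 and -0.15, with the median of all genes at 0.0077, -0.0030 and 0.013).

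With the replicate number as a block, 3 genes and 0 members were called, and the members' median was -0.08 with 16 of 26 negative. Only the CBR-5884 group had a replicate 4, so the block term took up that library. The fold changes of this setting therefore equal those without CBR-5884 replicate 4. On the length-weighted scale the replicate block called 16 genes and 0 members. Same-numbered libraries had deviations correlated at 0.07 and 0.08, over only 2 numbers shared by the groups. The labels do not say what a number marks, so the libraries were not treated as pairs.

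The median turned to 0.034, with 12 of 26 members negative, without CBR-5884 replicate 4 and solvent replicate 5. There Ifit2 was 0.044, Irf7 0.025, Zbp1 0.048, Irgm1 0.099 and Irf9 -0.30. With 1 library left out, the median was -0.33 to -0.053, with 16 to 22 members negative. Over the fits without libraries, Ifit2 ranged over -0.54 to 0.044, Irf7 over -1.33 to 0.025, Irgm1 over -0.33 to 0.099, Zbp1 over -0.26 to 0.23 (0.10 without solvent replicate 3), Oas1a over -0.28 to 0.80 and Irf9 over -0.30 to 0.29. With reference transcripts only, Oas1a was -1.92, Irf9 -1.51 and Zbp1 0.22. With the most abundant reference transcript, Oas1a was -1.92, Irf9 -1.61, Zbp1 0.29, Gbp3 0.022 and Irgm1 0.067. In CBR-5884 replicate 3, Oas1a and Irf9 had no reference transcript above 0. Their values in either setting therefore rest on that 0. With the length-weighted sum, Oas1a was -0.23 and Irf9 -0.30. Under the replicate block and without CBR-5884 replicate 4, Irf9 was -0.29 and Zbp1 0.23. None of these had an adjusted p below 0.05, and the cause was not tested. Fits of Irf7 that include CBR-5884 replicate 4, such as the one at -1.33, rest on a value listed at 0. The deposited coverage implied 44 to 104 fragments per library for Ifit1 and 0 to 3 for Cxcl9. Differences in Cxcl9 were therefore not detectable at this depth. For Ifit1, the deposited interval of CBR-5884 replicate 4 (0.376 to 0.723 FPKM) lay below those of replicates 3 and 5 (0.796 and 0.883 FPKM upward). That difference inside the group was visible at this depth. Whether depth hid differences between the groups in the rare members was not tested.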
